A study of Mus musculus with 12 samples.

Results

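OCY454 is a mouse cell line of the osteoblast and osteocyte lineage that is grown at 33 °C and differentiates when the culture is moved to 37 °C. Here the net change of its Piezo1 knockout (KO) derivative from day 1 to day 28 at 37 °C is described, from 4 of the 12 RNA-seq libraries of the study: 2 KO libraries of day 1 (the basal state) and 2 KO libraries of day 28. The KO line carries a CRISPR-Cas9 deletion of exons 19 to 21 of Piezo1, and the unedited line, called wild type (WT), was sampled on the same days. The 2 KO libraries of day 14 and the 6 WT libraries were part of the same fit, so they enter the filter, the scaling and the spread behind each p-value. Day 14 levels are given for many genes. For WT mostly the net change is given, with levels for a few genes only. All groups share the cell line, the medium (alpha-MEM with 10% FBS and 1% antibiotic-antimycotic) and the temperature switch. Neither the number of edited clones nor whether the replicates were separate cultures is given in the sources used here, so the p-values rest on no more than the variation among these libraries, which may be technical.

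Piezo1 is a cation channel of the plasma membrane that opens when the membrane is stretched, and osteoblasts and osteocytes use it to sense load. Osteoblasts secrete and mineralise a matrix made mostly of type I collagen, and those that become embedded in it turn into osteocytes, which regulate phosphate and bone turnover. Cells that fold much secreted protein in the endoplasmic reticulum (ER) can raise its chaperones through the unfolded protein response, in which the transcription factors ATF6 and XBP1 act at the promoters of chaperone genes. A parallel branch, the integrated stress response, acts through ATF4 on genes of amino acid supply and through DDIT3.

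The KO transcriptome was extensively different at day 28. Of 13772 genes tested with edgeR, 3891 were called higher (28.3%) and 3771 lower (27.4%) at an adjusted p under 0.05, which made 55.6% in all. The median log2 fold change over all genes was 0.01. More than 2-fold changes were called for 1052 genes higher and 1019 lower, more than 4-fold changes for 372 and 252, and more than 16-fold changes for 69 and 22. The libraries of the 2 days did not overlap in 5445 genes that were higher (39.5%) and 5307 that were lower (38.5%), and this held for 7654 of the 7662 called genes. In a principal component analysis of the 6 KO libraries, the first component held 56.2% of the variance and ran from -37.9 in both day 1 libraries through -16.3 and -16.4 at day 14 to 52.0 and 56.6 at day 28.

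The 4 libraries held 11629055 to 15357427 counts, TMM scaling factors in the study were 0.9417 to 1.051, and levels are given as CPM (counts scaled to a common library size) after that scaling, first for replicate 1 and then for replicate 2. Replicates of KO day 28 differed more from each other than those of KO day 1: among genes at 10 CPM or more, 54 of 9083 differed by over 1.5-fold, against 2 of 9227. The share of counts on mitochondrially encoded genes fell from 2.31% in both day 1 libraries to 1.73% and 1.47%, and the 20 most counted genes took 8.65% in both day 1 libraries and 11% and 10.2% at day 28. The part of these shifts in the results was not tested. In bulk RNA, fewer cells of a type and less RNA per cell cannot be told apart.

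Piezo1 itself (ENSMUSG00000014444.17, chr8:122481698-122551329, minus strand) the edited gene, was counted in every KO library. Its level stood at 169.8 and 169.4 CPM at day 1, 114.3 and 107.6 at day 14, then 281.5 and 275.6 at day 28, a net change of 0.72 ± 0.06 (adjusted p = 1.07e-10). The KO libraries of different days did not overlap. In WT the levels were 216.1 and 214.5 CPM at day 1, 210.7 and 206.1 at day 14, then 235.1 and 241.8 at day 28. The WT change was 0.15, and the difference of 0.57 ± 0.08 was called (adjusted p = 1.49e-05). A count over the whole gene holds reads from the exons outside the deletion and so does not check the deletion, and Piezo1 overlaps Ctu2 on the opposite strand.

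**Figure D1:**
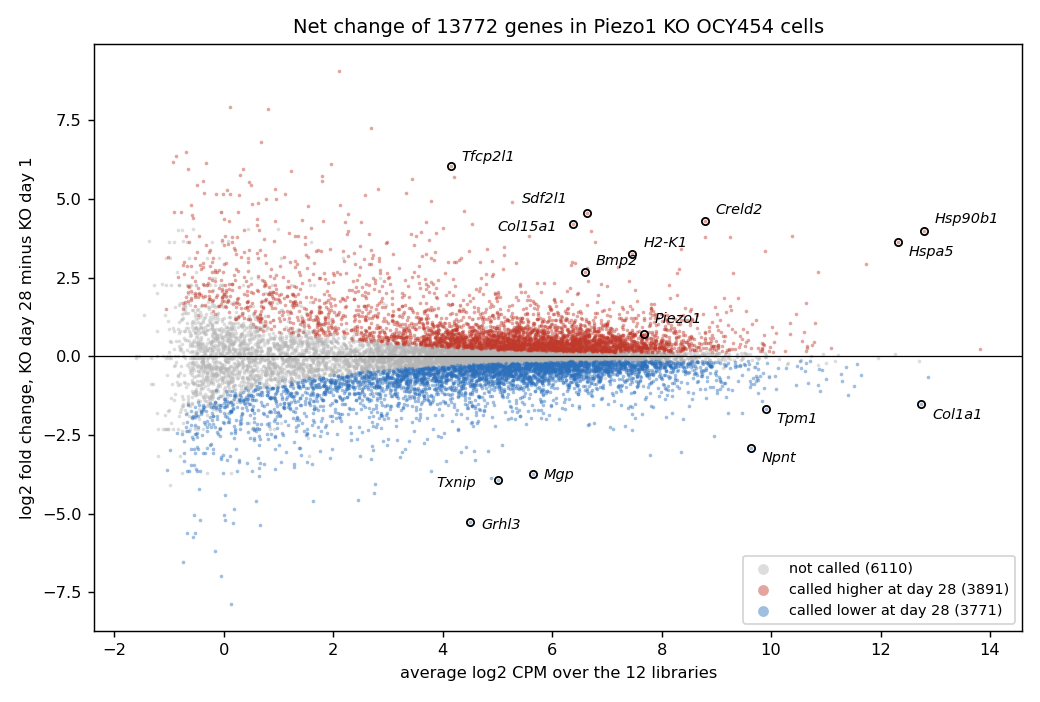
Each point is 1 of 13772 genes, with its average log2 CPM over the 12 libraries on the horizontal axis and its log2 fold change from day 1 to day 28 in KO on the vertical axis. Genes called higher (3891) and lower (3771) lie on both sides of 0, and Hsp90b1 and Hspa5 stand out as the abundant genes with the highest increases.

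The clearest movement was in the machinery that folds proteins in the ER. All 21 genes of a list of ER chaperones, disulfide isomerases and ER-associated degradation factors rose, with a median log2 fold change of 2.77 against 0.01 over all genes tested, of which 28.3% rose and 27.4% fell. Their summed share of the scaled counts went from 0.728% and 0.722% at day 1 to 6.52% and 6.11% at day 28. To show what several of these genes have in common, their promoters were searched in the windows of 250 bases before to 50 bases after the annotated start (RefSeq, GRCm38.p6) for the ER stress response element, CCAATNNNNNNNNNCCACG, on both strands. It was present in 9 of the 19 list members with an entry (47.4%), against 17 of 10639 tested genes (0.16%) and 39 of all 32851 windows (0.119%). A match is a description of these letters and not a shown binding site. Below are the 9 stretches, written 5′ to 3′ on the strand of the gene, with the boxes of the element in capitals (CCAAT and CCACG, or CGTGG and ATTGG where the element lies on the other strand).
Hspa5: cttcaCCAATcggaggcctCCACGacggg
Creld2: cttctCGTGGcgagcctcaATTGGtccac
Calr: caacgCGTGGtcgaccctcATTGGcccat
Canx: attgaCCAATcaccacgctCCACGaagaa
Pdia6: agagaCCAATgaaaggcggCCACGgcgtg
Dnajc3: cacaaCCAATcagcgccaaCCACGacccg
Syvn1: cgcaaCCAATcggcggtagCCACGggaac
Derl3: tctacCGTGGgacttccccATTGGctagc
Hsp90b1: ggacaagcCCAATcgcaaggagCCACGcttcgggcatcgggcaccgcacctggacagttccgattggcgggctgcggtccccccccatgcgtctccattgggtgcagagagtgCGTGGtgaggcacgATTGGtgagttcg
The stretch of Hspa5 lies at chr2:34772020-34772048 on the plus strand, 42 to 70 bases upstream of the start. Those of Creld2 (chr15:88819515-88819543), Pdia6 (chr12:17266486-17266514), Dnajc3 (chr14:118937822-118937850), Syvn1 (chr19:6046527-6046555) and Derl3 (chr10:75893237-75893265) are also on the plus strand. On the minus strand are Calr (chr8:84847070-84847098), Canx (chr11:50325795-50325823) and Hsp90b1 (chr10:86705525-86705664), which alone among them holds 2 matches, 1 in each orientation.

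Hspa5 encodes BiP, the main HSP70 chaperone of the ER lumen. It stood at 1014 and 996 CPM at day 1, 1080 and 1032 at day 14, then 13110 and 11840 at day 28, a log2 fold change of 3.63 ± 0.07 (SE, adjusted p = 9.09e-25). Hsp90b1 (ENSMUSG00000020048.13), the HSP90 of the ER, went from 1278 and 1252 CPM to 20960 and 19450 (3.998 ± 0.10, adjusted p = 2.79e-14), and thereby had the largest gain in CPM of any called gene. In both genes the day 14 libraries lay close to those of day 1 on the scale of the net change, and the groups did not overlap. Calr, a lectin chaperone, rose from 1092 and 1090 to 8505 and 8027 CPM, and its membrane-bound relative Canx from 825 and 820 to 2607 and 2669. The disulfide isomerases rose from lower levels, among them Pdia4 (267.8 and 268.5 to 4024 and 3568 CPM), Pdia3 (682 and 672 to 4366 and 4324) and Pdia6 (215 and 210 to 2244 and 2104).

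The steepest members were smaller in level. Creld2, an ER-resident oxidoreductase cofactor, went from 70.8 and 67.7 CPM to 1396 and 1349 (log2 fold change 4.31 ± 0.07, adjusted p = 1.66e-25). Sdf2l1, which works with BiP, went from 9.48 and 10.5 to 237.6 and 230 CPM (4.54 ± 0.09, adjusted p = 8.16e-24). Hyou1, a nucleotide exchange factor for BiP, went from 107.3 and 104.3 to 1450 and 1475 CPM (3.79 ± 0.10, adjusted p = 3.05e-15). Xbp1, a transcription factor of the response, was chosen after its value was seen: it rose from 50.4 and 54.4 CPM through 89.6 and 92.7 at day 14 to 170.1 and 174.6 (1.72 ± 0.08, adjusted p = 1.83e-15). The lowest increase in the list was a log2 fold change of 1.05, in P4hb, the disulfide isomerase that is also the beta subunit of collagen prolyl hydroxylase. P4hb was likewise chosen after the values were seen.

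Relative to the midpoint of day 1 and day 28 on the log2 scale, 17 of the 21 ER genes were called lower at day 14, where 20.4% of all tested genes were called lower and 21.2% higher. In WT the same list had 20 members higher and 0 lower (24.6% and 23.4% of all genes), with a median of 2.41. The net change of KO exceeded that of WT for 15 of the 21, against 10.7% of all tested genes called in that direction and 9.52% in the other. Hsp90b1 rose by 3.998 in KO and by 3.17 in WT, a difference of 0.83 ± 0.13 (adjusted p = 0.00028), whereas Calr, at 2.92 and 3.02, gave a difference of -0.10 ± 0.09 (adjusted p = 0.47).

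Genes of the integrated stress response rose beside the chaperones: 19 of 20 were higher and 1 lower (28.3% and 27.4% of all genes), with a median of 1.32. Ddit3, the transcription factor CHOP, went from 189.0 and 196.4 CPM at day 1 to 84.6 and 93.4 at day 14, then 1250 and 1144 at day 28 (log2 fold change 2.63 ± 0.08, adjusted p = 1.13e-17). Trib3, a pseudokinase induced by CHOP and ATF4, went from 61.0 and 57.8 through 22.4 and 24.9 to 302.3 and 317.5 CPM (2.38 ± 0.07, adjusted p = 3.16e-20). Both genes were thus lower at day 14 than at either end. Cebpb, a transcription factor of the C/EBP family, rose from 35.6 and 32.5 to 145.8 and 163.5 CPM, and Slc3a2, the heavy chain of amino acid exchangers, from 162.9 and 164.6 to 633.2 and 632.8. Atf4 and Atf3, chosen after their values were seen, rose by 1.48 ± 0.06 (adjusted p = 1.13e-17) and 0.89 ± 0.11 (adjusted p = 1.71e-07). The 1 member that fell was Ddit4, an inhibitor of mTORC1, at -1.02 ± 0.19 (adjusted p = 0.000101). Ddit3 overlaps Mars and another gene in the antisense orientation, and no source used here says whether strand was used in counting, so reads of such pairs cannot be told apart. The same holds for Hsp90b1, Smpd3, Phospho1, Runx2, Slc2a1, Txnip, Map2, Ostn and others named here that overlap an opposite gene.

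Beside WT, 17 of 20 genes had a higher net change in KO and 0 a lower one (10.7% and 9.52% of all genes), and the median net change was 1.32 in KO and 0.50 in WT. The difference was 1.67 ± 0.09 for Trib3 (adjusted p = 8.57e-13), 1.43 ± 0.09 for Slc3a2 (adjusted p = 6e-12) and 1.33 ± 0.11 for Cebpb (adjusted p = 1.87e-09). At day 14, 17 of the 20 were called below the midpoint of the ends and 2 above it (20.4% and 21.2% of all genes).

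The enzymes that charge tRNAs and the ribosome followed in the same direction with smaller changes. Of 18 cytosolic aminoacyl-tRNA synthetases 12 rose, 2 fell and 4 were not called (all genes: 28.3% and 27.4%), with a median of 0.69. Wars, which charges tryptophan, went from 44.9 and 47.0 to 136.9 and 127.4 CPM (log2 fold change 1.52 ± 0.08, adjusted p = 2.56e-14), and Yars, Iars and Sars rose by 1.31, 1.12 and 0.98. The 2 that fell, named for that reason after their values were seen, were Hars (-0.48 ± 0.08, adjusted p = 8.8e-06) and Kars (-0.31 ± 0.06, adjusted p = 0.000114). The net change, though not the level, was higher in KO than in WT for 12 of the 18 and lower for 0, against 10.7% and 9.52% of all genes. Mean levels of Sars and Yars were lower in KO than in WT on both days. Of 30 ribosomal protein genes 26 rose and 0 fell (28.3% and 27.4% of all genes), with a median of 0.37: Rps6, of the small subunit, went from 155.6 and 151.0 to 262.5 and 243.0 CPM, and Rpl4, of the large subunit, from 929.8 and 941.2 to 1567 and 1468. Ribosomal proteins have many near-identical pseudogene copies, and how multi-mapped reads were counted is not given, so these levels are uncertain.

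**Figure D2:**
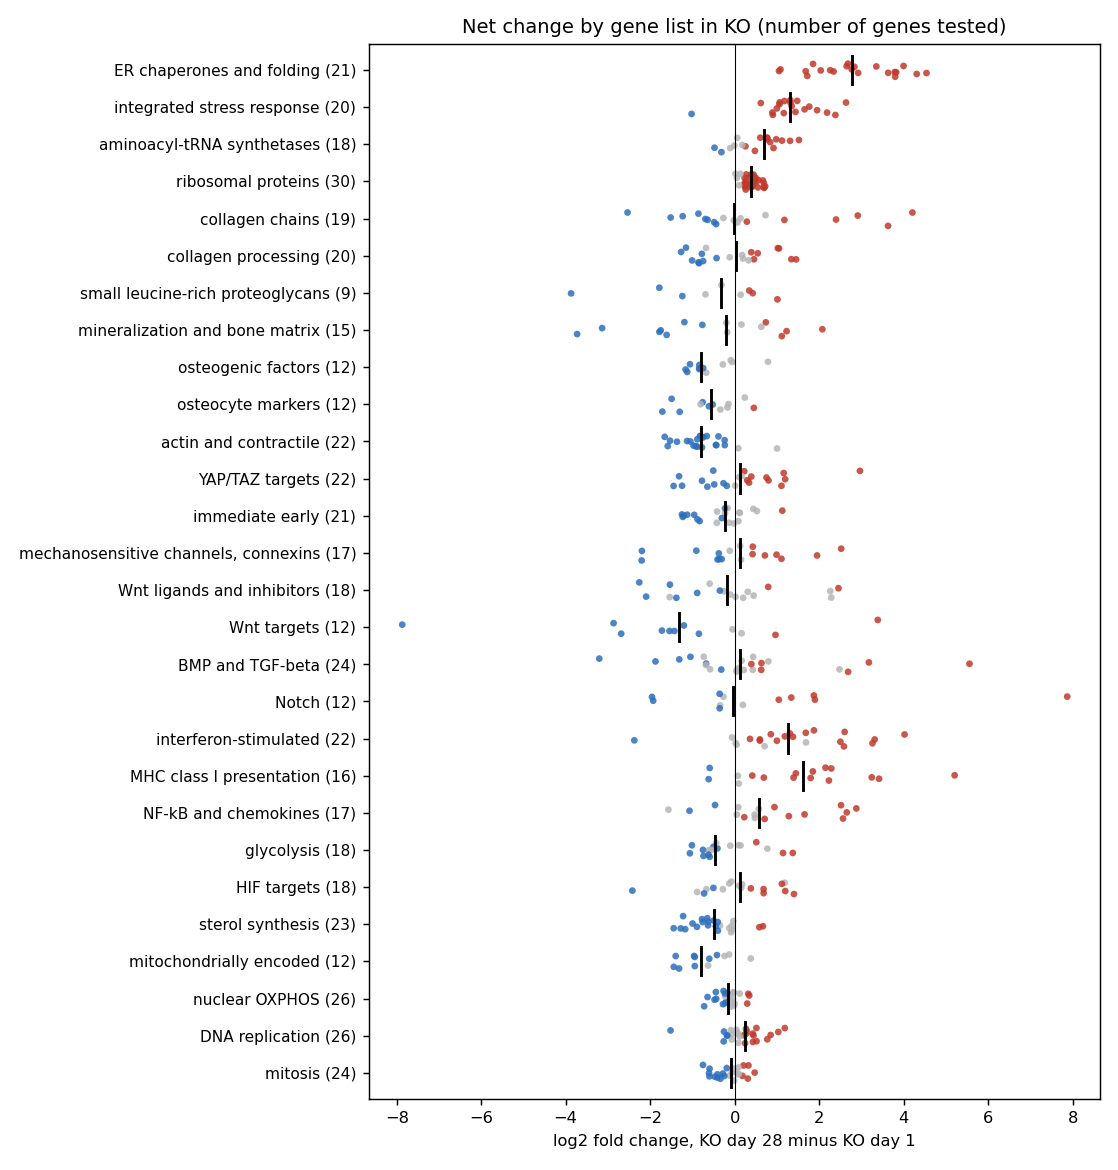
Points are the tested genes of 28 of the 41 lists, placed by their fitted log2 fold change from day 1 to day 28 in KO (red called higher, blue called lower, grey not called), and black bars are list medians. ER chaperones lie wholly to the right, with a median of 2.77, and actin and contractile genes to the left, with a median of -0.81. Fitted values of genes with 3 counts or fewer in a group, such as Lgr5 and Hey2, are no measure of their fold.

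Collagen chains split by type. Of 19 tested chains (20 in the list) 6 rose, 8 fell and 5 were not called, against 28.3% and 27.4% of all genes, with a median of -0.02. Col1a1 (ENSMUSG00000001506.10, chr11:94936224-94953042, plus strand), the main chain of type I collagen, stood at 6416 and 6512 CPM at day 1, 17930 and 17680 at day 14, then 2813 and 1710 at day 28 (log2 fold change -1.52 ± 0.27, adjusted p = 0.00278). Its partner Col1a2 went from 5956 and 6006 through 14900 and 14930 to 4266 and 3403 CPM (-0.64 ± 0.15, adjusted p = 0.00793). Both type I chains were thus highest at day 14 and lower at day 28 than at day 1. The call of Col1a1 was lost when only the KO day 1 and day 28 libraries were fitted (adjusted p = 0.0579). Col6a3 fell by 1.23 ± 0.17 and Col12a1, a chain that coats collagen fibrils, from 826 and 840 to 161.6 and 126.1 CPM (-2.54 ± 0.13, adjusted p = 1.05e-07).

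Basement membrane chains went the other way. Col4a1, of type IV collagen, stood at 10.7 and 10.4 CPM at day 1, 89.3 and 93.6 at day 14, then 124.2 and 136.2 at day 28 (log2 fold change 3.63 ± 0.10, adjusted p = 3.92e-21). Col4a2 rose by 2.91 ± 0.10 and Col15a1, of a collagen next to basement membranes, from 6.66 and 5.08 to 122.0 and 94.2 CPM (4.21 ± 0.17, adjusted p = 1.84e-11). These 3 chains had most of their increase by day 14. Their net change was larger in KO than in WT, by 2.25 ± 0.13 for Col4a1 (adjusted p = 8.48e-13), 1.89 ± 0.13 for Col4a2 and 2.46 ± 0.22 for Col15a1. Mean levels were nonetheless lower in KO on both days. WT means at day 1 and day 28 were 69.94 and 181.8 CPM for Col4a1 and 69.05 and 140.5 for Col4a2. For Col15a1 they were 36.95 and 123.8 CPM, against 5.87 and 108.1 in KO. Col4a1 and Col4a2 face each other on opposite strands and overlap in the annotation. Summed over the 19 chains, collagen took 2.55% and 2.56% of scaled counts at day 1, 5.42% and 5.43% at day 14, then 1.80% and 1.42% at day 28, and 15 of the chains were called above the midpoint of the ends at day 14, as were 21.2% of all genes.

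Enzymes and chaperones of collagen were also divided, with 7 of 20 higher, 8 lower and 5 not called, beside 28.3% and 27.4% of all genes. Serpinh1, the collagen chaperone HSP47, went from 731.6 and 744.2 CPM to 2038 and 2099 at day 14, then 1919 and 1822 at day 28 (log2 fold change 1.34 ± 0.06, adjusted p = 2.62e-16). The lysyl oxidase Loxl4 rose from 24.5 and 22.4 to 70.3 and 58.3 CPM (1.45 ± 0.10, adjusted p = 1.46e-12). Falling members included Fkbp10, an ER prolyl isomerase needed for collagen crosslinking (-1.15 ± 0.10), and the prolyl hydroxylase subunit P4ha3 (-1.27 ± 0.15). Of 9 tested small leucine-rich proteoglycans (11 in the list), which bind collagen fibrils, 3 rose, 3 fell and 3 were not called (28.3% and 27.4% over all genes). Omd, osteomodulin, fell from 46.6 and 48.5 to 3.37 and 3.12 CPM (-3.87 ± 0.27, adjusted p = 5.35e-07) and Fmod, fibromodulin, from 1225 and 1247 to 393.9 and 324.5 (-1.78 ± 0.18, adjusted p = 0.00011). The call of Aspn, higher by 1.01 ± 0.29 (adjusted p = 0.008), was lost without KO day 28 replicate 1 (0.68, adjusted p = 0.0852) and without KO day 1 replicate 2 (0.90, adjusted p = 0.0732). Leaving out any 1 of the 4 libraries left 1 of these genes called higher, and the list median of -0.32 then ranged from -0.67 to 0.10.

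Matrix proteases and their inhibitors gave 4 of 14 tested genes higher (18 in the list), 7 lower and 3 not called, where all genes gave 28.3% and 27.4%. Mmp2, gelatinase A, fell from 309.6 and 326.1 to 77.9 and 84.9 CPM (log2 fold change -1.96 ± 0.08, adjusted p = 3.97e-17), and Mmp23 fell by 1.36 ± 0.18. Timp3, an inhibitor held in the matrix, went from 146.7 and 138.8 through 76.5 and 86.7 to 419.3 and 413.6 CPM (1.54 ± 0.07, adjusted p = 2.55e-16). Mmp13, collagenase 3, went from 3.67 and 3.75 through 47.8 and 48.4 to 12.9 and 26.5 CPM (2.43 ± 0.39, adjusted p = 0.000905), with 2.83 without KO day 28 replicate 1 and 1.79 without replicate 2. For Mmp2 the change in WT was -0.15, and the difference of -1.81 ± 0.11 was called (adjusted p = 2.66e-12), as were 7 other members with a lower net change in KO (9.52% of all genes). Outside the lists, the cell-matrix ligand Npnt fell from 1612 and 1592 to 245.9 and 185.1 CPM (-2.90 ± 0.16, adjusted p = 1.54e-06). Fn1, fibronectin, was among the most abundant genes and rose from 14110 and 14280 to 17350 and 16120 CPM (0.24 ± 0.06, adjusted p = 0.00182), with 11660 and 11580 at day 14.

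Genes of mineralisation moved in both directions. Of 15 genes 4 rose, 7 fell and 4 were not called (28.3% and 27.4% over all genes), with a median of -0.20. Alpl, the phosphatase that releases phosphate for mineral, stood at 535.4 and 541.2 CPM at day 1, 991.1 and 942.2 at day 14, then 188.5 and 125.5 at day 28 (log2 fold change -1.78 ± 0.25, adjusted p = 0.000865). Smpd3, a sphingomyelinase required for bone mineral, fell from 307.5 and 297.7 to 47.3 and 22.8 CPM (-3.14 ± 0.38, adjusted p = 0.000448), ranging from -3.74 without KO day 28 replicate 1 to -2.68 without replicate 2. Phospho1, a phosphatase of matrix vesicles, fell by 1.61 ± 0.12, Fam20a by 1.75 ± 0.13 and Ifitm5, an osteoblast membrane protein, by 1.19 ± 0.21. Mgp, an inhibitor of mineralisation, fell from 97.5 and 94.7 to 8.74 and 5.98 CPM (-3.73 ± 0.36, adjusted p = 0.000124). The members that fell therefore included genes that favour mineral and one that restrains it. Sparc, osteonectin, fell by 0.77 ± 0.20 (adjusted p = 0.0147), and its call was lost without KO day 1 replicate 1 (-0.77, adjusted p = 0.0512) or replicate 2 (-0.76, adjusted p = 0.0545), and in the fit of the 2 compared groups alone (adjusted p = 0.1).

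The 4 members that rose were Bglap2, an osteocalcin gene (11.3 and 12.1 to 48.2 and 50.3 CPM, log2 fold change 2.08 ± 0.14), the phosphate transporter Slc20a1 (65.2 and 65.9 to 147.8 and 159.2, 1.23 ± 0.07), Enpp1, which makes pyrophosphate (1.28 and 1.18 to 2.86 and 2.51, 1.12 ± 0.31), and Spp1, osteopontin (74.7 and 73.1 to 117.4 and 128.5, 0.74 ± 0.08). Bglap2 has near-identical neighbours, Bglap and Bglap3, so the split of reads among them is uncertain. Bglap3 stood at 0.51 and 0.52 CPM at day 1 and at 17.0 and 19.6 at day 28, and Bglap at 1.62 and 2.28 and at 3.29 and 2.85 (0.63 ± 0.31, adjusted p = 0.0902). Not called were also Ank, a pyrophosphate exporter (0.16 ± 0.09), Slc20a2 (-0.18 ± 0.10) and Ibsp, bone sialoprotein, which stood at 1236 and 1179 CPM at day 1, 2349 and 2438 at day 14, then 1281 and 825.1 at day 28. Without KO day 28 replicate 1, Ibsp was called lower (-0.55, adjusted p = 0.00442).

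Transcription factors of the osteoblast lineage were lower or not called: 7 of 12 fell, 0 rose and 5 were not called (27.4% and 28.3% over all genes), with a median of -0.79. In WT 8 of the 12 fell and 1 rose (23.4% and 24.6% of all genes), with a median of -0.755. The net change was called lower in KO than in WT for 1 and higher for 0 (9.52% and 10.7% of all genes). Runx2, the factor that commits cells to the lineage, went from 210.3 and 203.5 CPM through 341.6 and 313.7 at day 14 to 125.4 and 106.6 (log2 fold change -0.84 ± 0.11, adjusted p = 2.51e-05). Sp7, osterix, which acts after Runx2, went from 278.5 and 279.6 through 526.6 and 511.9 to 157.7 and 99.6 CPM (-1.12 ± 0.27, adjusted p = 0.0116), and its call was lost without KO day 28 replicate 2 (-0.83, adjusted p = 0.0505) and when only the groups compared were fitted (adjusted p = 0.073). Prrx1, a homeobox factor of limb mesenchyme, fell from 1268 and 1248 to 594.6 and 530.4 CPM (-1.16 ± 0.15), and Dlx5 and Dlx6 fell by 0.75 ± 0.12 and 0.83 ± 0.18. Mef2c, at -0.84 ± 0.20 (adjusted p = 0.00968), was not called when only the groups compared were fitted (adjusted p = 0.0981). Twist2, at 2.14 and 1.55 CPM and then 0.69 and 1.02, was called at -1.06 ± 0.45 (adjusted p = 0.0467) but in no fit that left out 1 of the 4 libraries (-1.39 to -0.83, adjusted p up to 0.253). In all, 10 of the 12 factors were called above the midpoint of the ends at day 14 and 0 were called below it (21.2% and 20.4% of all genes). Uncalled members included Dlx3 (0.79 ± 0.43), Twist1 (-0.06 ± 0.11), Msx1 (-0.28 ± 0.24) and Msx2 (-0.67 ± 0.35). Dlx3 was called higher with no filter on low counts (0.79, adjusted p = 0.0312) and when the 2 compared groups were fitted alone (0.79, adjusted p = 0.0237), and in the latter fit Msx2 was called lower (-0.68, adjusted p = 0.0367).

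Genes used as osteocyte markers gave 1 of 12 tested members higher, 6 lower and 5 outside the threshold (all genes: 28.3% and 27.4%), with a median of -0.57. Pdpn, podoplanin, which marks cells turning into osteocytes, fell from 52.8 and 59.9 to 14.1 and 19.9 CPM (log2 fold change -1.71 ± 0.16, adjusted p = 5.32e-07). Phex, an endopeptidase of phosphate control, fell from 11.4 and 10.1 to 3.46 and 4.07 CPM (-1.49 ± 0.22), and Tnfrsf11b, osteoprotegerin, from 26.8 and 24.9 through 42.7 and 46.2 to 13.1 and 8.29 (-1.30 ± 0.18). Capg (-0.76 ± 0.10), Irx5 (-0.61 ± 0.13) and Dstn (-0.52 ± 0.07) fell less, and Fam20c, the kinase of secreted bone proteins, rose from 36.1 and 38.8 to 54.5 and 48.4 CPM (0.45 ± 0.09). Markers that define mature osteocytes were at low levels: Sost, sclerostin, stood at 1.28 and 0.52 CPM at day 1 and 0.95 and 0.48 at day 28, Mepe at 1.28 and 1.10 and then 1.30 and 0.88, and Dmp1 at 5.47 and 3.68 and then 5.80 and 4.96. All 3 overlapped between the days, with net changes of -0.34 ± 0.57, -0.15 ± 0.48 and 0.24 ± 0.26. Fgf23 and Tnfsf11 had too few counts to be tested, with 0 counts of Fgf23 in all 4 libraries of the comparison. Ackr3 and Ptprz1 were under 1 CPM in these libraries and not called. The net change of Pdpn differed from that in WT, which was -0.03, by -1.68 ± 0.22 (adjusted p = 8.6e-05).

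Most genes of the actin cytoskeleton fell. Of 22 actin, myosin, tropomyosin and focal adhesion genes 20 fell and 0 rose (27.4% and 28.3% of all genes), with a median of -0.81, and their summed share went from 1.54% and 1.55% of scaled counts at day 1 to 1.03% and 0.95% at day 28. Tpm1, a tropomyosin that stabilises actin filaments, stood at 1525 and 1514 CPM at day 1, 1485 and 1456 at day 14, then 505.9 and 458.3 at day 28 (log2 fold change -1.66 ± 0.07, adjusted p = 3.75e-17). Tpm2 fell from 494.1 and 511.6 to 185.5 and 150.3 CPM (-1.58 ± 0.10, adjusted p = 9.08e-09), and Vcl, vinculin of focal adhesions, from 409.5 and 416.1 to 170.2 and 150.6 (-1.37 ± 0.07, adjusted p = 7.09e-15). At day 14 all 3 genes lay nearer to day 1 than to day 28, Vcl at 334.1 and 333.8 CPM. Lmod1, an actin nucleator of smooth muscle, fell by 1.53 ± 0.12, and Actb, chosen after its value was seen, from 1708 and 1767 to 906.1 and 928.8 CPM. The 2 members not called were Cnn1 (1.00 ± 0.57, at 0.34 and 0.44 and then 1.04 and 0.61 CPM) and Srf, the transcription factor of many actin genes (0.09 ± 0.08). All 20 calls were made again in each fit that left out 1 library. In WT 15 of the 22 fell and 0 rose (23.4% and 24.6% of all genes). The net change was lower in KO than in WT for 15 genes and higher for 1 (9.52% and 10.7% of all genes). Among the former was Tpm2 (difference -0.95 ± 0.14, adjusted p = 0.00031).

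Targets of the YAP and TAZ coactivators, which respond to cell tension, did not share a direction. Of 22 such genes 10 rose and 9 fell (28.3% and 27.4% of all genes), with a median of 0.14. Gadd45a, a stress-induced growth arrest gene, rose from 22.7 and 21.9 to 158.0 and 189.9 CPM (log2 fold change 2.96 ± 0.14, adjusted p = 9.56e-10), while Ccn2, a matricellular protein often used as a YAP readout, fell from 13.0 and 12.4 to 5.54 and 4.69 (-1.32 ± 0.18, adjusted p = 6.17e-07). Dock5 and Fjx1 fell by 1.45 ± 0.09 and 1.25 ± 0.27. At day 14, 16 of the 22 were called below the midpoint of the ends and 2 above it (all genes: 20.4% and 21.2%). Of 21 immediate early genes 1 rose and 9 fell, against 28.3% and 27.4% of all genes: Dusp6, a phosphatase that restrains ERK, went from 4.96 and 4.71 to 9.43 and 11.5 CPM (1.13 ± 0.18), and Nr4a1 (-1.25 ± 0.16), Klf2 (-1.23 ± 0.18) and Jund (-1.21 ± 0.09) fell. Without KO day 28 replicate 2 the immediate early genes called higher numbered 2.

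Among 17 tested mechanosensitive channels and gap junction genes (20 in the list) 7 rose, Piezo1 included, 7 fell and 3 were not called (all genes: 28.3% higher and 27.4% lower). Piezo2, the related channel, went from 0.94 and 1.03 through 4.53 and 3.26 to 3.98 and 3.74 CPM (1.95 ± 0.28, adjusted p = 1.24e-06), with a WT change of 0.09 and a difference of 1.86 ± 0.30 (adjusted p = 5.08e-05). Kcnk2, a stretch-gated potassium channel, rose from 2.48 and 2.35 to 14.6 and 13.2 CPM (2.52 ± 0.20). Gjc1, connexin 45, fell from 66.0 and 61.7 to 14.4 and 13.5 CPM (-2.20 ± 0.10), and Panx3, a pannexin of osteoblasts, from 259.5 and 268.6 to 74.0 and 42.1 (-2.20 ± 0.32). Gja1, connexin 43, named after its value was seen, rose by 0.99 ± 0.09 (adjusted p = 2.43e-08), so the connexins called here differed in direction.

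Readouts of Wnt signalling, which drives bone formation, were mostly lower. Of 12 tested Wnt target genes (13 in the list) 8 fell and 2 rose, beside 27.4% and 28.3% of all genes, with a median of -1.32. Axin2, the common feedback target, was chosen after its value was seen: it went from 34.9 and 35.7 through 43.7 and 46.9 to 12.8 and 8.90 CPM (log2 fold change -1.72 ± 0.15, adjusted p = 3.54e-09). Apcdd1, a membrane inhibitor, fell from 50.2 and 53.7 to 7.09 and 7.13 CPM (-2.87 ± 0.13, adjusted p = 6.79e-16). Lgr5 had 58 counts over the day 1 libraries and 0 at day 28, at least 20.1-fold lower against a floor of 3 counts over the group, whereas its relative Lgr6, also an R-spondin receptor, rose from 1.11 and 0.74 to 9.52 and 9.71 CPM (3.39 ± 0.27, adjusted p = 3.52e-11). Nkd2 had 20 counts at day 1 and 3 at day 28, a ratio of 6.93 (exact 95% interval 2.05 to 36.4, counting error only), after 5.10 and 5.14 CPM at day 14. Its fitted change was -3.37 without KO day 28 replicate 1 and -2.13 without replicate 2.

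Secreted Wnt ligands, agonists and inhibitors gave 2 of 18 tested genes higher (23 in the list), 6 lower and 10 not called, beside 28.3% and 27.4% of all genes. The agonist Rspo3 rose from 4.19 and 4.34 to 22.9 and 24.0 CPM (log2 fold change 2.46 ± 0.15). Among the secreted inhibitors Sfrp1 fell from 62.4 and 58.4 to 13.2 and 14.9 CPM (-2.10 ± 0.12, adjusted p = 4.23e-14), Wif1 from 40.7 and 40.8 to 18.3 and 10.3 (-1.53 ± 0.18) and Notum, which removes the lipid from Wnt proteins, from 9.40 and 7.87 to 1.90 and 1.70 (-2.26 ± 0.26). The inhibitor Dkk1, named after its values were seen, had 1 count at day 1 and 6 at day 28 (ratio 5.77, exact 95% interval 0.701 to 266, not called). The net change of Sfrp1 differed from that in WT, which was -0.29, by -1.80 ± 0.24 (adjusted p = 5.09e-06).

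Of 24 tested BMP and TGF-beta genes (25 in the list) 6 rose, 6 fell and 12 were not called, shares no higher than the 28.3% and 27.4% of all genes. Bmp2, a bone-inducing ligand, stood at 48.6 and 47.2 CPM at day 1, 62.4 and 62.1 at day 14, then 315.1 and 300.8 at day 28 (log2 fold change 2.69 ± 0.07, adjusted p = 1.13e-21), and its antagonist Nog rose from 0.94 and 0.81 to 7.79 and 8.08 (3.18 ± 0.29). Bmp2 rose by 0.87 in WT, and the difference was 1.82 ± 0.10 (adjusted p = 4.74e-13). Bmp8a had 0 counts at day 1 and 12 at day 28, at least 3.85-fold higher. At day 28 it was still at only 0.52 and 0.41 CPM in KO, against 6.70 and 4.62 in WT. Bmp2 and its antagonist thus both rose. Of 12 tested Notch genes (15 in the list) 5 rose and 4 fell (all genes: 28.3% and 27.4%). Hey2, a Notch effector, had 0 counts at day 1 and 61 at day 28, at least 19.6-fold higher, and the ligand Jag2 rose from 2.05 and 1.32 to 5.97 and 6.45 CPM (1.90 ± 0.29). Lfng, which glycosylates Notch, fell from 17.3 and 14.0 through 30.1 and 27.4 to 4.498 and 3.60 CPM (-1.96 ± 0.20). Notch4 fell by 1.93 ± 0.71 (adjusted p = 0.024) and was not called without KO day 28 replicate 2 (-1.51, adjusted p = 0.173) or KO day 1 replicate 1 (-1.39, adjusted p = 0.223), and without the former 2 Notch genes were called lower.

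Antigen presentation and interferon response genes were higher at day 28. Of 16 genes of MHC class I presentation 12 rose and 2 fell (28.3% and 27.4% of all genes), with a median of 1.62. In WT 15 of the 16 rose and 0 fell (24.6% and 23.4% of all genes), with a median of 1.68. The net change was called higher in KO than in WT for 4 and lower for 4 (10.7% and 9.52% of all genes). H2-K1 (ENSMUSG00000061232.16), a classical class I heavy chain, stood at 29.0 and 28.7 CPM at day 1, 150.4 and 154.3 at day 14, then 269.4 and 277.0 at day 28 (log2 fold change 3.25 ± 0.07, adjusted p = 2.41e-23). Psmb8, a subunit of the immunoproteasome, went from 2.65 in both libraries through 23.4 and 24.1 to 25.1 and 31.4 CPM (3.42 ± 0.17, adjusted p = 1.89e-15). H2-Q4 rose from 41.0 and 36.5 to 197.4 and 180.4 CPM and H2-Q7 from 0.26 and 0.29 to 11.3 and 9.91, but the H2-Q genes are near-identical copies and their split is uncertain. The rise was already large at day 14 in these genes. The 2 lower members, named after their values were seen, were Tapbp, tapasin (-0.59 ± 0.11, adjusted p = 0.000282), and H2-T23 (-0.62 ± 0.26, adjusted p = 0.0493), whose call was lost without any 1 of KO day 28 replicate 1 (-0.41, adjusted p = 0.273), KO day 1 replicate 1 (-0.53, adjusted p = 0.195) and KO day 1 replicate 2 (-0.71, adjusted p = 0.0834).

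Of 22 tested interferon-stimulated genes (25 in the list) 16 rose and 1 fell (28.3% and 27.4% of all genes), with a median of 1.25. Oasl2, of the oligoadenylate synthetase family, went from 3.16 in both libraries through 6.80 and 7.37 to 16.6 and 21.6 CPM (log2 fold change 2.60 ± 0.17, adjusted p = 5.15e-13). Ifi44 rose from 0.94 and 1.25 to 7.44 and 14.3 CPM (3.31 ± 0.44) and Rtp4 from 0.77 and 0.74 to 5.19 and 9.10 (3.26 ± 0.35). Oas2 had 1 count at day 1 and 21 at day 28 (ratio 20.2, exact 95% interval 3.25 to 836). Its fitted change ran from 3.16 without KO day 28 replicate 2 to 6.33 without KO day 1 replicate 2. In WT all 22 rose (24.6% of all genes), with a median of 2.60, and the net change of KO was lower than that of WT for 13 of the 22 and higher for 0 (9.52% and 10.7% of all genes). The exception in KO was Ifit3b, with 11 counts at day 1 and 2 at day 28 (5.71-fold lower, interval 1.25 to 53.1), against a WT change of 3.94. Its call in KO was lost without KO day 28 replicate 1 (-1.62, adjusted p = 0.197), KO day 1 replicate 1 (-2.14, adjusted p = 0.143) or KO day 1 replicate 2 (-2.61, adjusted p = 0.0633), and the fitted change was -5.47 without KO day 28 replicate 2. In the promoters, GAAANNGAAA, the core of the interferon response element, was found on either strand in 10 of 17 list members with an entry (58.8%), against 3.58% of tested genes.

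Genes of NF-kB signalling and secreted cytokines gave 9 of 17 tested members higher (21 in the list), 2 lower and 6 not called, against 28.3% and 27.4% of all genes. Lif, a cytokine of the IL-6 family, rose from 2.73 and 2.43 to 17.6 and 15.01 CPM (log2 fold change 2.65 ± 0.22) and Ptgs2, the inducible cyclooxygenase, from 3.93 and 3.83 through 17.8 and 15.6 to 19.4 and 24.9 (2.52 ± 0.18). Ccl5 had 2 counts at day 1 and 17 at day 28 (ratio 8.18, exact 95% interval 1.94 to 73.0), and its call was lost without KO day 28 replicate 2 (2.57, adjusted p = 0.0705) or KO day 1 replicate 2 (2.78, adjusted p = 0.0635). Ccl7, at 0.09 and 0.22 and then 0.69 and 1.22 CPM (2.56 ± 0.67), was not called without KO day 28 replicate 2 (2.06, adjusted p = 0.0539) and gave 3.38 without KO day 1 replicate 2. The falls, chosen after their values were seen, were in Cxcl12, a chemokine of bone marrow stroma (153.0 in both libraries to 69.6 and 75.9 CPM, -1.07 ± 0.08), and Nfkbia, the NF-kB inhibitor (-0.47 ± 0.10).

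More glycolysis genes fell than rose, and several were highest at day 14. Of 18 genes 3 rose, 8 fell and 7 were not called (28.3% and 27.4% over all genes), with a median of -0.47, and 15 of the 18 were called above the midpoint at day 14 (21.2% of all genes). In WT 3 of the 18 rose and 12 fell (24.6% and 23.4% of all genes), with a median of -0.617. The net change was called higher in KO than in WT for 2 and lower for 0 (10.7% and 9.52% of all genes). Tpi1, triose phosphate isomerase, went from 175.5 and 174.3 CPM through 365.4 and 422.0 to 84.1 and 83.6 (log2 fold change -1.06 ± 0.24, adjusted p = 0.00961). Aldoa, an aldolase, went from 188.9 and 197.9 through 399.4 and 440.1 to 90.9 and 100.5 CPM (-1.01 ± 0.24, adjusted p = 0.0112). Both peaked at day 14 and ended below day 1. Without 1 library these calls could be lost: Tpi1 without KO day 28 replicate 2 (-1.06, adjusted p = 0.052), and Aldoa without KO day 28 replicate 1 (-0.95, adjusted p = 0.0598) or KO day 1 replicate 2 (-0.98, adjusted p = 0.0506). Then 5 glycolysis genes were called lower, and also without KO day 28 replicate 2. The glucose transporter Slc2a1 and the hexokinase Hk2, which supply the pathway, rose, Slc2a1 from 22.9 and 20.2 through 49.6 and 58.5 to 44.9 and 49.9 CPM (1.14 ± 0.11, adjusted p = 3.98e-09) and Hk2 from 38.7 and 36.7 to 86.3 and 108.4 (1.38 ± 0.10). In WT Slc2a1 fell by 0.41, and the difference was 1.55 ± 0.14 (adjusted p = 2.42e-08). Its level was lower in KO on both days, as WT stood at 106.6 and 103.7 CPM at day 1 and 87.3 and 71.1 at day 28.

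Targets of hypoxia-inducible factors gave 6 of 18 higher, 3 lower and 9 not called (all genes: 28.3% and 27.4%), and 12 were called above the midpoint at day 14 (all genes: 21.2%). Vegfa, the vascular growth factor, rose in steps from 126.5 and 126.0 CPM through 203.5 and 213.6 to 288.2 and 290.8 (log2 fold change 1.20 ± 0.06, adjusted p = 7.42e-15), with a WT change of -0.06 and a difference of 1.26 ± 0.09 (adjusted p = 3.25e-11). Its level was lower in KO on both days, as WT stood at 408.3 and 422.9 CPM at day 1 and 415.0 and 381.2 at day 28. Stc2, a secreted glycoprotein, rose by 1.40 ± 0.21, and the ER oxidase Ero1l by 1.12 ± 0.10. Ankrd37 went from 3.59 and 3.83 through 23.1 and 31.3 to 0.61 and 0.75 CPM (-2.42 ± 0.52), so its day 14 peak stood far above both ends. Among the 18 genes 8 changed more upward in KO than in WT and 1 less, against 10.7% and 9.52% of all genes. Without KO day 28 replicate 2 only 1 of the 18 was called lower.

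Most lipid synthesis genes fell. Of 23 tested sterol synthesis genes (24 in the list) 15 fell, 2 rose and 6 were not called (27.4% and 28.3% of all genes), with a median of -0.50. Hmgcs1, which opens the mevalonate pathway, went from 228.8 and 241.8 CPM through 129.1 and 119.8 to 93.9 and 107.7 (log2 fold change -1.22 ± 0.09, adjusted p = 4.73e-10). Dhcr7, which makes cholesterol from its last precursor, fell from 41.7 and 39.1 to 14.6 and 15.01 CPM (-1.45 ± 0.14, adjusted p = 4.07e-09), and Hsd17b7 and Nsdhl fell by 1.28 ± 0.10 and 1.17 ± 0.15. Summed over the list, the sterol genes were lowest at day 14, at 1179 to 1288 CPM, against 1959 to 2005 at day 1 and 1370 to 1490 at day 28. At day 14, 15 of the 23 were called below the midpoint and 0 above it (20.4% and 21.2% of all genes). The 2 risers, chosen after their values were seen, were Insig1, which holds back the sterol sensor (0.67 ± 0.07), and Ebp (0.58 ± 0.08). The sterol regulatory element core TCACNCCAC was found in 1 of 16 promoters with an entry (6.2%), against 1.41% of tested genes. Of 12 fatty acid synthesis genes 7 fell and 0 rose, against 27.4% and 28.3% of all genes. Elovl6, a chain elongase, went from 43.9 and 43.1 through 66.2 and 62.8 to 13.7 and 17.8 CPM (-1.45 ± 0.13), Fasn from 195.1 and 198.0 to 138.6 and 135.1 (-0.52 ± 0.09) and Acly from 196.4 and 199.5 to 137.4 and 140.6 (-0.51 ± 0.06). Scd2, at -0.51 ± 0.16 (adjusted p = 0.0249), was not called without KO day 28 replicate 2 (-0.40, adjusted p = 0.121), KO day 1 replicate 1 (-0.49, adjusted p = 0.075) or KO day 1 replicate 2 (-0.54, adjusted p = 0.0591).

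Most mitochondrially encoded transcripts were lower: 8 of 12 tested genes (13 in the list) fell and 0 rose (27.4% and 28.3% of all genes), with a median of -0.79. mt-Nd5, a subunit of complex I, went from 4294 and 4233 CPM to 2257 and 2172 (log2 fold change -0.95 ± 0.17, adjusted p = 0.00233), and mt-Nd6, on the opposite strand, from 682.1 and 655.5 to 335.1 and 351.6 (-0.96 ± 0.19). mt-Cytb, of complex III, went from 4480 and 4490 to 3196 and 2714 CPM (-0.60 ± 0.18, adjusted p = 0.028). The levels of these genes are uneven, with mt-Atp6 (-1.32 ± 0.30) at 8.03 and 5.30 CPM at day 1 and mt-Co3 (-1.40 ± 0.42) at 2.22 and 1.84, and reads shared with nuclear copies may have been handled in a way not given in the sources used here. Some calls rested on single libraries: mt-Cytb was lost without KO day 28 replicate 2 (-0.49, adjusted p = 0.138), KO day 1 replicate 1 (-0.61, adjusted p = 0.0817) or KO day 1 replicate 2 (-0.60, adjusted p = 0.0875), and mt-Atp8 (-1.44 ± 0.61, adjusted p = 0.0484) without any 1 of the 4 (-1.57 to -1.29, adjusted p up to 0.192). The number called lower went down to 4 without KO day 28 replicate 2 and to 5 without either day 1 library.

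Nuclear genes of oxidative phosphorylation had small changes: 3 of 26 rose, 11 fell and 12 were not called (all genes: 28.3% and 27.4%), with a median of -0.15. The largest falls were in Ndufa4 (34.3 and 37.6 to 23.3 and 20.5 CPM, log2 fold change -0.72 ± 0.11), Sdha (-0.64 ± 0.06), Cox6c (-0.48 ± 0.07) and Cox5b (-0.45 ± 0.06). Without KO day 1 replicate 2 the falls numbered 7, and without KO day 28 replicate 2 the rises numbered 1. Antioxidant genes gave 7 of 22 higher, 5 lower and 10 not called, shares near the 28.3% and 27.4% of all genes. Hmox1, heme oxygenase, went from 61.9 and 60.4 through 36.5 and 38.6 to 169.6 and 180.7 CPM (1.52 ± 0.09, adjusted p = 6.1e-13), and Gclc and Txnrd1, of glutathione and thioredoxin metabolism, rose by 1.26 ± 0.19 and 1.23 ± 0.21. Txnip (ENSMUSG00000038393.14), which binds thioredoxin and limits glucose uptake, fell stepwise from 109.0 and 110.4 through 50.7 and 42.3 to 6.75 and 7.61 CPM (-3.92 ± 0.12, adjusted p = 4.04e-20). In WT Txnip fell by 1.02, and the difference was -2.90 ± 0.20 (adjusted p = 3.25e-11). WT stood at 13.2 and 14.2 CPM at day 1 and at 7.26 and 6.19 at day 28. The lines were thus far apart at day 1 and close at day 28.

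Most lysosomal genes rose: 14 of 25 were higher, 2 lower and 9 outside the threshold (28.3% and 27.4% over all genes), with a median of 0.23. Atp6v0b, of the proton pump, went from 39.0 and 38.7 to 98.9 and 113.4 CPM (log2 fold change 1.45 ± 0.09), and the hydrolases Hexa and Ctsl rose by 0.98 ± 0.07 and 0.86 ± 0.07. Ctsa (-0.40 ± 0.11) and Ctsb (-0.36 ± 0.07) were lower, and Ctsa was not called without KO day 28 replicate 2 (-0.32, adjusted p = 0.0714). Both were chosen after their values were seen. WT had 20 of 25 higher (24.6% of all genes), with a median of 0.56, and the net change was lower in KO than in WT for 12 genes (9.52% of all genes), Hexa among them (-0.92 ± 0.10, adjusted p = 1.76e-07).

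Proliferation genes were expressed throughout. Of 26 DNA replication genes 14 rose, 5 fell and 7 were not called (28.3% and 27.4% of all genes), with a median of 0.23, and of 24 mitosis genes 5 rose, 11 fell and 8 were not called, with a median of -0.09. Cdc45, of the replicative helicase, went from 43.3 and 42.0 to 97.2 and 96.8 CPM (log2 fold change 1.19 ± 0.07), Cdc6, which loads the helicase, rose by 1.03 ± 0.09 and Gins1 by 0.85 ± 0.13. Ccne1, cyclin E, fell from 33.1 and 34.7 to 12.5 and 11.2 CPM (-1.52 ± 0.13). Leaving out any 1 library left 2 or 3 replication genes called lower, and 3 mitosis genes called higher without KO day 28 replicate 2 or either day 1 library. Mki67, chosen after its value was seen, stood at 1046 and 1043 CPM at day 1, 1209 and 1235 at day 14, then 787.2 and 787.4 at day 28 (-0.41 ± 0.06, adjusted p = 7.7e-07). Other mitosis genes that fell were Cenpa by 0.75 ± 0.10, Kif20a by 0.61 ± 0.07, Plk1 by 0.60 ± 0.09 and Cenpf by 0.59 ± 0.07. The 5 that rose, named after their values were seen, were Bub1b (0.47 ± 0.06), Foxm1 (0.33 ± 0.07), Cdc20 (0.31 ± 0.08), Aurka (0.21 ± 0.09) and Top2a (0.18 ± 0.06). At day 14, 23 of the 24 mitosis genes were called above the midpoint, as were 21.2% of all genes. TTTGAA, the cell cycle homology region, occurred in 14 of 19 mitosis promoters with an entry (73.7%), against 14.4% of tested genes. Of 21 tested p53 targets and cell cycle inhibitors (22 in the list) 5 rose and 10 fell (28.3% and 27.4% of all genes): Gdf15, a secreted stress factor, went from 1.62 in both libraries to 20.6 and 21.9 CPM (3.71 ± 0.25), while Btg2 (-1.52 ± 0.14), Plk2 (-1.51 ± 0.11) and Zmat3 (-1.29 ± 0.12) fell.

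**Figure D3:**
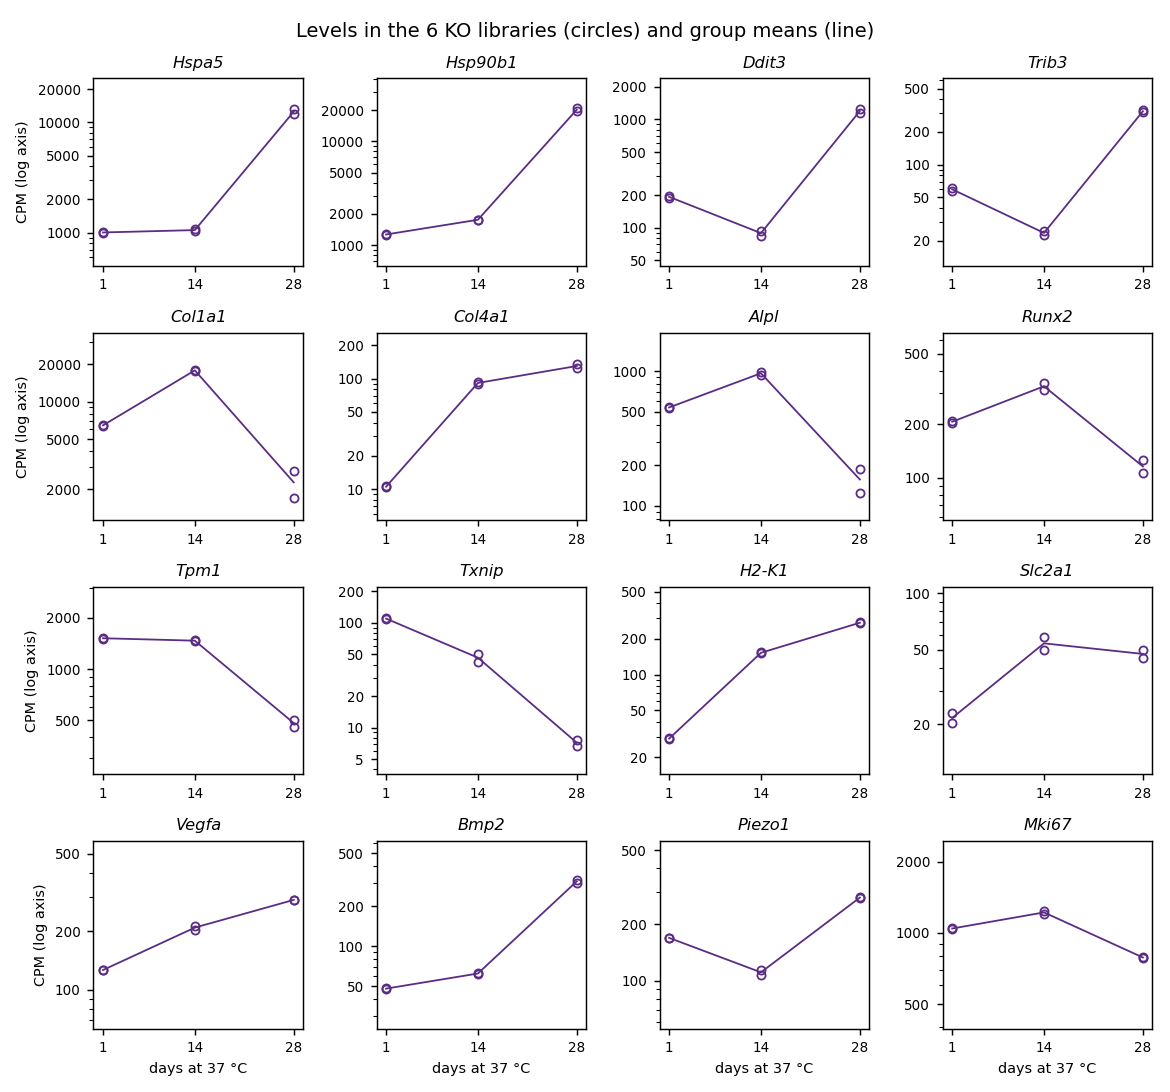
Each panel gives 1 gene, with days at 37 °C on the horizontal axis and CPM on a log axis; circles are the 6 KO libraries and lines join group means. Hspa5 and Hsp90b1 are nearly flat to day 14 and high at day 28, Ddit3, Trib3 and Piezo1 dip at day 14, and Col1a1, Alpl and Runx2 peak there.

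The 15 genes chosen for the highest log2 fold changes were at 1.03 CPM or less in each day 1 library, and Ostn, Enpep, Bmp8a and Kif1a had 0 counts in both. The level threshold of that choice was over all 12 libraries. A gene low in KO could thus pass it through WT, as Bmp8a did. Ostn, osteocrin, a peptide hormone of bone and muscle, had no counts in the libraries of day 1 or day 14 but 141 in those of day 28, at least 45.2-fold higher. Tfcp2l1 (ENSMUSG00000026380.10), an epithelial and pluripotency transcription factor, went from 0.34 and 0.15 CPM through 0.38 and 0.43 to 17.2 and 15.35 (log2 fold change 6.04 ± 0.32, adjusted p = 1.89e-14), with 5.53 without KO day 1 replicate 2 and 6.69 without replicate 1. Abca8a, a lipid transporter, rose from 1.03 and 0.52 through 11.2 and 10.9 to 23.3 and 23.6 CPM (4.95 ± 0.23). Some of these genes came on by day 14 and others only afterwards. Car6, a secreted carbonic anhydrase, was flat at day 14 (0.76 and 0.43 CPM) and at 20.9 and 22.6 at day 28, against 1.03 and 0.44 at day 1 (4.91 ± 0.27, 4.39 without KO day 1 replicate 2 and 5.59 without replicate 1). Gbp6 and Gbp9, guanylate-binding proteins induced by interferon, reached 13.4 and 19.0 and 9.34 and 17.5 CPM, Gbp6 with 5.65 ± 0.53 (5.17 without KO day 1 replicate 1 and 6.50 without replicate 2) and Gbp9 from 2 to 365 counts (ratio 176, exact 95% interval 48.3 to 1460, and a fitted 6.23 without KO day 1 replicate 2 and 10.4 without replicate 1).

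Genes that rested on 3 counts or fewer at day 1 had wide intervals. Mlip, a lamin-binding protein, had 2 counts at day 1 and 162 at day 28 (ratio 78.0, exact 95% interval 21.2 to 649), Dpyd, a pyrimidine-degrading enzyme, 2 and 124 (59.7, 16.2 to 498), and 4930431P03Rik 3 and 121 (38.8, 13.0 to 191). Map2, a microtubule-associated protein of neurons, had 1 and 67 counts (64.5, 11.2 to 2580). Enpep had 0 and 15 counts (at least 4.81-fold higher) and Kif1a 0 and 10 (at least 3.21-fold). Among these, leaving out 1 library moved the fitted log2 value of Mlip from 5.28 (without KO day 1 replicate 1) to 9.26 (without replicate 2), of Map2 from 4.75 (without KO day 1 replicate 2) to 8.03 (without replicate 1) and of Enpep from 5.15 (without KO day 28 replicate 1) to 6.44 (without replicate 2). The call of Kif1a was lost without KO day 28 replicate 1 (3.89, adjusted p = 0.096), and its value was 6.13 without replicate 2.

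Among the genes with the lowest log2 fold changes, Grhl3 (ENSMUSG00000037188.7), a grainyhead transcription factor of epithelia, went from 55.2 and 53.6 CPM through 25.2 and 24.1 to 1.64 and 1.22 (-5.26 ± 0.23, adjusted p = 9.84e-13). Zfp462 (ENSMUSG00000060206.11), a zinc finger protein, went from 15.6 and 15.9 through 3.68 and 2.83 to 0.69 and 0.81 CPM (-4.35 ± 0.24, adjusted p = 3.38e-14). Pkp2, a desmosomal plaque protein, fell from 4.70 and 5.003 to 0.17 and 0.20 CPM (-4.60 ± 0.41) and Anxa8, an annexin, from 11.6 and 10.5 through 0.76 and 0.77 to 0.61 and 0.34 (-4.56 ± 0.31). On the log2 scale most of the decline of Anxa8 came by day 14, and most of that of Grhl3 and Omd came afterwards. Has2, a hyaluronan synthase, fell by 3.43 ± 0.34, the sodium channel gene Scn1a by 3.34 ± 0.49, Myh13 by 3.35 ± 0.39, Odf3l1 by 3.41 ± 0.36 and Gask1b by 3.31 ± 0.18. Inha, the inhibin alpha subunit, fell by 3.51 ± 0.39, with -4.25 without KO day 28 replicate 1 and -2.93 without replicate 2. Adamts18 had 52 counts at day 1 and 3 at day 28 (18.0-fold lower, exact 95% interval 5.83 to 90.2), after 4.34 and 6.86 CPM at day 14. Hist1h2bc, a histone gene with near-identical copies, fell from 40.2 and 44.1 to 3.89 and 2.99 CPM (-3.63 ± 0.17). Among abundant genes the splicing factors Hnrnpa2b1 (2488 and 2464 to 1256 and 1364 CPM, -0.92 ± 0.06) and Hnrnpu (2812 and 2719 to 1634 and 1721, -0.72 ± 0.06), the receptor Nrp2 (2575 and 2566 to 1264 and 1131, -1.10 ± 0.10) and vimentin, Vim (3300 and 3318 to 2472 and 1984, -0.57 ± 0.14), were among the 10 largest losses in CPM.

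Markers of other cell types were low or absent. Of 12 muscle markers Myod1, Myog, Myf6 and Actc1 had 0 counts in every library, and of the 5 tested Tnni1, a slow skeletal troponin, rose from 0.68 and 0.44 to 9.08 and 9.91 CPM (log2 fold change 4.08 ± 0.32), while Tnnc1 fell by 1.63 ± 0.38. None of 7 tested adipocyte markers and none of 6 tested blood cell markers was called in edgeR's test, with summed levels of 22.95 to 26.65 CPM at day 1 and 21.1 to 23.9 at day 28 for the former and 11.2 to 14.5 and 13.0 to 15.5 for the latter. Of 6 tested endothelial markers Vwf alone was called, from 1.71 and 1.32 to 8.65 and 10.3 CPM (2.65 ± 0.24), and the summed level went from 4.19 and 4.27 to between 11.3 and 12.6 CPM. Neither tested epithelial marker was called, at a summed level under 1.1 CPM. Of 3 tested neuronal markers Map2 was higher and Tubb3 lower (38.2 and 40.5 to 15.1 and 7.27 CPM, -1.86 ± 0.35), while Nefl had 0 counts in every library. Over all genes tested, 28.3% were called higher and 27.4% lower. The part of these markers in the results was not tested.

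Chondrocyte and tendon markers were present at modest levels. Summed chondrocyte markers (9 tested of 14) stood at 81.9 to 85.7 CPM at day 1 and 53.5 to 58.6 at day 28. Of the 9, 2 were called higher and 3 lower, shares near the 28.3% and 27.4% of all genes. Sox6, a chondrogenic factor, rose from 1.79 and 1.32 through 8.87 and 10.0 to 6.66 and 5.91 CPM (log2 fold change 2.01 ± 0.24), and its partner Sox5 fell from 11.3 and 11.6 to 4.41 and 2.92 (-1.67 ± 0.23). Hapln1 (0.74 ± 0.28, adjusted p = 0.0265) was not called without KO day 28 replicate 2 (0.50, adjusted p = 0.271), KO day 1 replicate 1 (0.73, adjusted p = 0.0857) or KO day 1 replicate 2 (0.74, adjusted p = 0.103), and then 1 marker was called higher. Matn3 (-1.61 ± 0.67, adjusted p = 0.0439) was called in none of the 4 fits that left out 1 library (-1.83 to -1.31, adjusted p up to 0.231). Summed fibroblast and tendon markers (9 tested of 12) went from 196.4 and 197.1 to between 100.8 and 109.1 CPM: S100a4 fell from 80.0 and 82.3 to 11.4 and 11.5 (-2.82 ± 0.33), Scx, the tendon factor, from 45.8 and 41.8 to 16.5 and 16.9 (-1.39 ± 0.11), and Fap rose from 2.22 and 1.69 through 20.2 and 21.5 to 10.1 and 8.22 (2.23 ± 0.22). Cd34, with 2 counts at day 1 and 11 at day 28 (ratio 5.29, exact 95% interval 1.16 to 49.1), was not called without KO day 28 replicate 1 (1.66, adjusted p = 0.258) or KO day 1 replicate 2 (1.25, adjusted p = 0.325), which left Fap the only marker called higher, and its fitted value was 5.45 without KO day 1 replicate 1.

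The path between the ends was often not direct. Of the 3891 genes called higher, the day 14 mean lay between the ends for 2135, above both for 511 and below both for 1245. Of the 3771 called lower, it lay between for 2157, above both for 1104 and below both for 510. Among the 6110 genes with no called net change, 1076 were called above and 868 below the midpoint of the ends at day 14 (21.2% and 20.4% over all 13772). These counts use the same day 1 and day 28 libraries as the net change. Gpr35, an orphan-family receptor, stood at 0.26 and 0.29 CPM at day 1, 10.4 and 14.1 at day 14, then 0.35 and 0.41 at day 28, a departure of 5.20 on the log2 scale (adjusted p = 2.74e-08). Ndufa4l2 (0.60 and 0.59, 11.6 and 15.9, 0.69 and 1.36 CPM) and Egln3 (1.37 and 2.28, 20.1 and 26.4, 4.67 and 3.87 CPM), both known hypoxia targets, peaked likewise, as did Selenbp1, Chn2 and Cd248, with departures of 3.21, 3.38 and 2.83. The peaks at day 14 were thus several times the level of either end in genes whose net change was not called. Lowest at day 14 were Gpr141 (3.08 and 6.47, 0.47 and 0.51, 4.07 and 3.74 CPM, departure -3.11), Cmbl (-2.36), Tmem184a (-2.52), Cystm1 (-2.07), Myh14 (-2.98) and Gm8066 (-2.04). For Cd248 the departure was 2.50 without KO day 1 replicate 1 and 3.62 without replicate 2. For Myh14 it was -6.87 without KO day 14 replicate 1 and -1.96 without replicate 2, and for Gm8066 -3.40 and -1.30.

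The WT line, whose libraries share the fit and its estimate of the spread with those of KO, had 3389 genes higher and 3224 lower from day 1 to day 28, 48.0% of those tested. Genes called higher in both lines numbered 2426, which was 62.3% of the KO list and 71.6% of the WT list, and genes lower in both 2159, which was 57.3% and 67.0%. The log2 fold changes of the 2 lines correlated with Pearson's r = 0.67 across the 13772 genes, which are not independent replicates and share a cell line and a scaling. A difference between the net changes was called for 2782 genes (20.2%), 1471 with a higher value in KO and 1311 with a lower one. Of the KO genes called higher, 1108 had a called difference in the same direction and 127 one in the other, and of those called lower 921 and 81. Over all genes, 10.7% had a called higher difference and 9.52% a lower one. The test of the difference uses the same KO libraries that selected these genes, so agreement in direction is partly built in. Genes called in both lines in opposite directions numbered 119 up in KO and down in WT and 105 the other way.

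Among called differences of genes with an average log2 CPM of 1 or higher, many of the highest and lowest were in low-level genes. Hpse, heparanase, went from 0.09 and 0.22 to 2.60 and 2.51 CPM in KO (3.93 ± 0.46; 3.47 without KO day 1 replicate 1 and 4.75 without replicate 2) and by -0.05 in WT, a difference of 3.98 ± 0.49 (adjusted p = 1.07e-06), or 3.51 and 4.79 without the same libraries. Spock2, a matrix proteoglycan, was at 1.45 and 2.06 and then 3.63 and 2.58 CPM in KO (0.78 ± 0.33, adjusted p = 0.0465) and fell by 3.01 in WT (difference 3.79 ± 0.41; 3.32 without WT day 28 replicate 1 and 4.38 without replicate 2). The call of Spock2 in KO was lost without KO day 28 replicate 1 (0.53, adjusted p = 0.277), KO day 1 replicate 1 (0.56, adjusted p = 0.257) or KO day 1 replicate 2 (1.07, adjusted p = 0.0543). Hapln4 had 2 counts at day 1 and 35 at day 28 in KO (ratio 16.8, exact 95% interval 4.33 to 145; fitted 2.79 without KO day 28 replicate 2 and 7.06 without KO day 1 replicate 2), with a WT change of -0.23. Mark1, a microtubule affinity kinase, had 1 and 25 counts (24.1, 3.94 to 988; fitted 3.52 without KO day 1 replicate 1 and 6.58 without replicate 2), with a WT change of 0.34.

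At the other end, Sirpa, an inhibitory receptor, rose from 2.39 and 1.69 to 3.55 and 3.12 CPM in KO (0.71 ± 0.25, adjusted p = 0.0163) and by 3.86 in WT, a difference of -3.15 ± 0.32 (adjusted p = 4.52e-08). Its call in KO was lost without KO day 28 replicate 1 (0.62, adjusted p = 0.081) or KO day 1 replicate 2 (0.47, adjusted p = 0.211). Ifi207, an interferon-inducible gene, was called at 1.23 ± 0.52 in KO (adjusted p = 0.0453) but in no fit without 1 of the 4 libraries (0.98 to 1.57, adjusted p up to 0.203), and rose by 4.17 in WT. H2-Q6 was at 0.34 and 0.37 and then 0.43 and 0.34 CPM in KO (0.10 ± 0.66) and rose by 4.53 in WT, with the uncertainty of its near-identical copies. Shank1 was not called in KO (-1.52 ± 0.71, adjusted p = 0.0711) and rose by 1.63 in WT. Ifit3b, which rests on 2 counts in KO at day 28, had the lowest fitted difference of the genes named here, at -6.32 ± 1.11 (adjusted p = 0.000154). It was -9.42 without KO day 28 replicate 2 and -5.56 without replicate 1. Also among the lowest were genes that fell further in KO than in WT, namely Zfp462 (-4.35 and -0.47), Pkp2 (-4.60 and -1.06), Omd (-3.87 and -0.81) and Scn1a (-3.34 and -0.33).

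**Figure D4:**
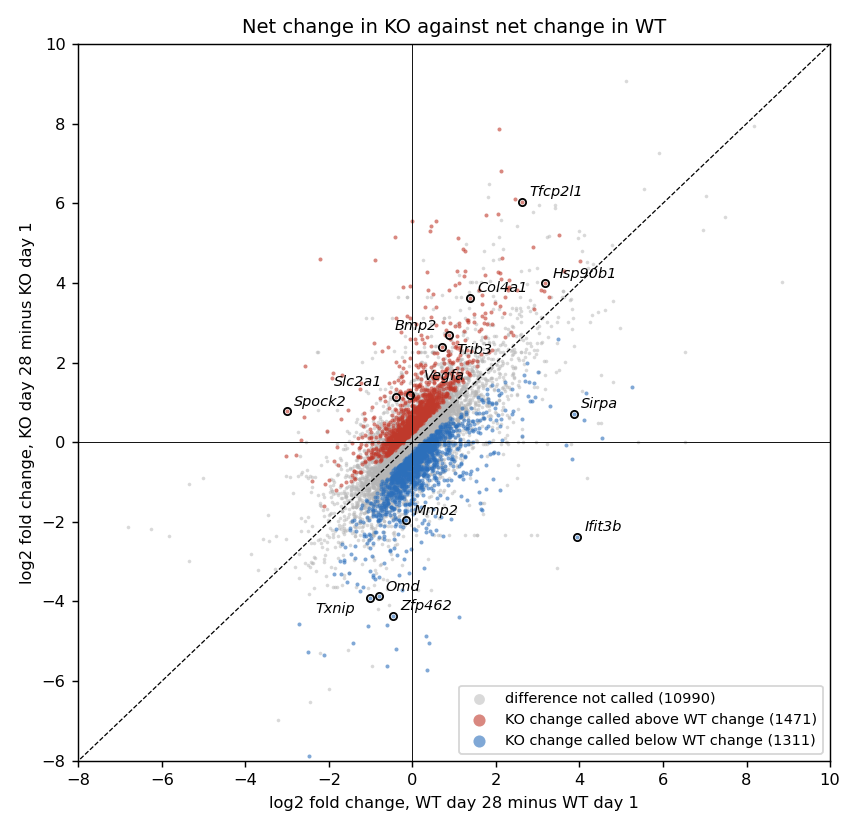
Each point is a gene, with its log2 fold change from day 1 to day 28 in WT on the horizontal axis and in KO on the vertical axis; the dashed line marks equal changes. Genes with a called difference lie above the line (1471, red) or below it (1311, blue), with Bmp2, Trib3, Col4a1 and Vegfa above and Txnip, Zfp462, Mmp2 and Sirpa below.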

How the data were processed

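Poly(A) RNA-seq was performed on 12 libraries of 6 groups (KO and WT at day 1, 14 and 28, 2 each). The authors deposited raw read counts per gene, 1 column per library; the submitters' processing notes name STAR, featureCounts, Subread, edgeR and the build mm10, while annotation, strand setting and the handling of multi-mapped reads were not stated in the sources used. Counts of 3 transgene rows were left out, 9345 of 32248 rows held no count, and 97.6% of rows matched a symbol of GENCODE vM21. The 13772 genes kept by edgeR's filterByExpr (minimum count 10, minimum total 15) were TMM-scaled and fitted over all 12 libraries with 6 group coefficients (edgeR 4.0.16 in R 4.3.3, robust quasi-likelihood F test, two-sided). Benjamini-Hochberg adjustment ran over all genes tested, and a gene was called at an adjusted p under 0.05. The SE was taken as the size of the log2 fold change over the root of the F statistic. The contrasts were day 28 minus day 1 in KO and in WT, their difference, and KO day 14 minus the mean of the KO ends. The script was tested on simulated counts. Single genes compared by exact permutation of 2 against 2 libraries could not go below p = 0.333, so no such test was used.

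The members and the 41 gene lists were chosen with earlier results of these data known. Lists are described by counts and medians, most of them beside the shares of all genes, with no set test. Named genes were Piezo1, the measured osteocyte, osteogenic and mineralisation genes, the 15 highest and 15 lowest net changes (called, libraries not overlapping, mean log2 CPM 1 or higher), the 10 highest and 10 lowest CPM differences, up to 4 called members of each other list, and the 8 highest and 8 lowest differences between the lines and the 6 highest and 6 lowest day 14 departures of genes with no called net change. Some genes that the rule names are not reported here. Replicates of each group differed beyond sampling noise and were counted as 2. Equal replicate numbers did not pair the libraries (correlations of deviations between groups were -0.0402 to 0.112, with 0.0229 between KO day 1 and KO day 28 and the highest between KO day 28 and WT day 28). Alternatives were library totals alone, RLE, no filter, at least 1 CPM in 2 libraries, DESeq2 1.42.0, only the groups compared, a replicate block and leaving out each library. The depth of 8590067 to 15357427 counts leaves genes of 3 counts or fewer per group without a usable fold, so counts, bounds (floor of 3 counts over the group) and exact 95% intervals are given for them, covering counting error only.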

Additional observations from a re-analysis of the deposited data

Results flagged for a closer look

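The following genes are listed because the change from day 1 to day 28 differed between KO and WT in the edgeR test of the difference itself. That test compares changes and not levels, so a higher net change does not mean a higher level in KO at day 28. Among genes that had the higher net change in KO were those of the secretory and stress response, Hsp90b1 (0.83 ± 0.13, adjusted p = 0.00028, from 3.998 in KO and 3.17 in WT) and Trib3 (1.67 ± 0.09, adjusted p = 8.57e-13, from 2.38 in KO and 0.72 in WT). Signalling, transport and matrix genes were Bmp2 (1.82 ± 0.10, adjusted p = 4.74e-13, from 2.69 in KO and 0.87 in WT), Col4a1 (2.25 ± 0.13, adjusted p = 8.48e-13, from 3.63 in KO and 1.38 in WT), Vegfa (1.26 ± 0.09, adjusted p = 3.25e-11, from 1.20 in KO and -0.06 in WT), Slc2a1 (1.55 ± 0.14, adjusted p = 2.42e-08, from 1.14 in KO and -0.41 in WT), Hpse (3.98 ± 0.49, adjusted p = 1.07e-06, from 3.93 in KO and -0.05 in WT) and Spock2 (3.79 ± 0.41, adjusted p = 1.95e-07, from 0.78 in KO and -3.01 in WT). The mechanosensitive channels were Piezo1 (0.57 ± 0.08, adjusted p = 1.49e-05, from 0.72 in KO and 0.15 in WT) and Piezo2 (1.86 ± 0.30, adjusted p = 5.08e-05, from 1.95 in KO and 0.09 in WT). Genes with few counts in KO at day 1, whose fitted values depend on the prior count and are no measure of the fold, were Bmp8a (4.99 ± 1.57, adjusted p = 0.0249, from 5.56 in KO and 0.56 in WT), Dpyd (3.69 ± 0.77, adjusted p = 0.00105, from 5.74 in KO and 2.06 in WT), Hapln4 (4.14 ± 0.83, adjusted p = 0.000708, from 3.90 in KO and -0.23 in WT), Map2 (3.93 ± 0.80, adjusted p = 0.00072, from 5.70 in KO and 1.77 in WT), Mark1 (3.93 ± 0.97, adjusted p = 0.0047, from 4.28 in KO and 0.34 in WT) and Mlip (3.64 ± 0.79, adjusted p = 0.00146, from 6.11 in KO and 2.46 in WT). When 1 library was left out, the difference ran from 3.02 (without KO day 28 replicate 2) to 7.29 (without KO day 1 replicate 2) for Hapln4, from 2.98 (without KO day 1 replicate 2) to 6.26 (without replicate 1) for Map2, from 3.17 to 6.24 (without KO day 1 replicate 1 and 2) for Mark1 and from 2.81 to 6.80 (without the same libraries) for Mlip. A lower net change in KO was found for matrix and Wnt genes, Mmp2 (-1.81 ± 0.11, adjusted p = 2.66e-12, from -1.96 in KO and -0.15 in WT), Omd (-3.06 ± 0.36, adjusted p = 0.000198, from -3.87 in KO and -0.81 in WT) and Sfrp1 (-1.80 ± 0.24, adjusted p = 5.09e-06, from -2.10 in KO and -0.29 in WT). Of the actin genes and of other genes it was found for Tpm2 (-0.95 ± 0.14, adjusted p = 0.000309, from -1.58 in KO and -0.64 in WT), Txnip (-2.90 ± 0.20, adjusted p = 3.25e-11, from -3.92 in KO and -1.02 in WT), Pkp2 (-3.55 ± 0.54, adjusted p = 2.29e-05, from -4.60 in KO and -1.06 in WT), Scn1a (-3.02 ± 0.58, adjusted p = 0.000404, from -3.34 in KO and -0.33 in WT), Zfp462 (-3.88 ± 0.32, adjusted p = 2.18e-09, from -4.35 in KO and -0.47 in WT) and Shank1 (-3.15 ± 0.74, adjusted p = 0.00304, from -1.52 in KO and 1.63 in WT). Immune genes with the lower net change were H2-Q6 (-4.43 ± 0.83, adjusted p = 0.000308, from 0.10 in KO and 4.53 in WT), Ifi207 (-2.94 ± 0.73, adjusted p = 0.00501, from 1.23 in KO and 4.17 in WT), Ifit3b (-6.32 ± 1.11, adjusted p = 0.000154, from -2.38 in KO and 3.94 in WT) and Sirpa (-3.15 ± 0.32, adjusted p = 4.52e-08, from 0.71 in KO and 3.86 in WT). Ifit3b rests on 2 counts in KO at day 28, so its fitted value is no measure of the fold, and its difference was -9.42 without KO day 28 replicate 2 and -5.56 without replicate 1. The reads behind H2-Q6 may be shared with its near-identical copies, and no explanation of these differences was tested.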

How the results depend on the processing

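In the KO comparison, genes called higher numbered 3891 and ranged from 3177 to 3520 when 1 library was left out and from 3224 to 3932 under the other alternatives; genes called lower numbered 3771, with ranges of 3006 to 3384 and 3219 to 4487. Scaling by library totals alone gave 3224 higher and 4487 lower, so that 41.8% of calls were higher against 50.8%, with a median log2 fold change of -0.08 over all genes, and DESeq2 gave 3446 and 3219. The fit with the replicate number as a block gave 3861 and 3756, although equal numbers did not pair the libraries (correlation 0.0229 between KO day 1 and KO day 28). Among the named genes, the block removed the calls of H2-T23 (-0.62, adjusted p = 0.0535) and Twist2 (-1.06, adjusted p = 0.051) and added that of Shank1 (-1.50, adjusted p = 0.0443). For the difference between the lines, genes called higher in KO ranged from 913 to 2099 when 1 library was left out, with 932 without KO day 1 replicate 1, 913 without KO day 1 replicate 2 and 961 without WT day 1 replicate 1, and genes called lower ranged from 826 to 1873, with 826 without KO day 1 replicate 2; the cause was not tested. Calls in KO were followed through the alternatives for 225 named genes. Those lost when 1 library was left out are given with the genes, and 14 genes lost theirs in at least 1 other alternative. Gja1, P4hb, Bub1b, Foxm1, Cdc20, Aurka and Top2a, also named as changed, were not among the 225. The 29 called differences flagged above were followed in the same way. Among them, Bmp8a lost its call without KO day 28 replicate 1, KO day 1 replicate 1 or KO day 1 replicate 2. So did Ifi207 (-2.60 without KO day 1 replicate 2) and Shank1 (-2.78 without KO day 1 replicate 1). Mark1 lost its call at 3.29 without KO day 28 replicate 2 and at 3.17 without KO day 1 replicate 1. The called differences printed for Slc3a2, Cebpb, Col4a2, Col15a1, Pdpn and Hexa were not followed and are not among those flagged. When 1 library was left out, values that were not called changed sign within these ranges: Dmp1 -0.0329 to 0.533, H2-Q6 -0.0693 to 0.270, Ibsp -0.554 to 0.0802 (called at its lowest), Mepe -0.428 to 0.122, Ptprz1 -0.573 to 0.299, Sost -0.883 to 0.412 (and 0.114 without KO day 28 replicate 2) and Twist1 -0.150 to 0.00635. Depth limits the genes with 3 counts or fewer in a group, whose folds are bounds or wide intervals.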

Other observations

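The count table also holds 3 rows for transgenes, which entered no comparison. The row for a fusion of YAP S127 and EGFP held, at day 1, 14 and 28 in turn, 1 and 0, 1 and 3, and 7 and 2 counts in KO, against 2 and 3, 82 and 45, and 224 and 75 in WT. The Tdtomato row held 1 to 19 counts per library, and the Cre row 0 or 1.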
